A study of Rattus norvegicus with 6 samples.

Results

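Cytochrome P450 enzymes are heme proteins that insert an atom of molecular oxygen into lipids, steroids, vitamins and foreign chemicals. Those of the endoplasmic reticulum draw their electrons from P450 oxidoreductase and cytochrome b5, and those of mitochondria from the ferredoxins. Some members carry out fixed steps of sterol, steroid and vitamin D metabolism, while large gene families of rodents, many of them best known in liver, oxidise drugs and fatty acids. Their substrates outside the liver include hormones, sterols and arachidonic acid.

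The 65 genes described here are those whose symbol starts with Cyp and a number, measured by a probe set with exactly 1 symbol, out of 14506 genes measured in this way. Cyp1a1, Cyp1b1, Cyp26a1 and Cyp26b1 were left out by the rule that chose the members, and each of the 65 genes had a single probe set. One of the 65, Cyp2s1-ps1, is annotated as a transcribed pseudogene. Aromatase, Cyp19a1, is not analysed here.

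RNA came from the inner lining of the rat oviduct, the endosalpinx, with 6 adult Sprague-Dawley females measured on an array each. The 3 mated rats had been put with fertile males at 2200 h of proestrus, had sperm or a vaginal plug at a check 30 min later, stayed with the males and were killed 3 h after mating, with abundant semen in the uterus. The 3 unmated rats were kept isolated and were killed at 0130 h of estrus, with an edematous uterus. The mated rats were killed at the same clock time. The labels give body weights of 240 to 280 g (241 to 280 g for 1 unmated rat) and no allele, drug or surgery for either group. Male company and the handling of the check belong to the mated group alone, and their part cannot be told apart from that of mating. The values are log2 signals that the authors made with RMA, so a difference of 1 is a factor of 2, and the probes of different genes bind unequally, so signals do not rank transcript amounts between genes.

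Array medians of the log2 signal were between 7.89 and 7.94. Epithelial and ciliated cell markers were read beside the label of the tissue. All 9 measured epithelial markers, such as Krt19 and Epcam, gave signals above the receptor limit defined below. So did 8 of 9 ciliated markers, such as Foxj1 and Tppp3. Markers of other cells were above it for 6 of 8 fibroblast, 6 of 7 smooth muscle and 4 of 5 endothelial genes. The same held for 4 of 7 leukocyte, 4 of 6 adipocyte and 1 of 7 hepatocyte genes. Of all 14506 genes 71.1% were above it, so these counts alone do not tell which cells the RNA came from. In bulk tissue, fewer cells of a type and less RNA per cell cannot be told apart.

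Which P450 genes gave a signal above background was judged against 1240 odorant and pheromone receptor genes, which are chiefly used by sensory neurons. The 95th percentile of their mean signals, 7.13, served as the limit. Of the 65 P450 genes 18 (27.7%) had a mean above it, against 10308 of all 14506 genes (71.1%). Of those 18, 15 exceeded the limit on all 6 arrays and 12 by at least 1 log2 unit. The other 47 had means within the receptor range, where a signal cannot be told from background by this measure. Of these 47, 12 lay below the receptor median of 5.67, and 4 exceeded the limit on at least 1 array. The 95th percentile leaves 62 receptor genes above the limit by construction.

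**Figure D1:**
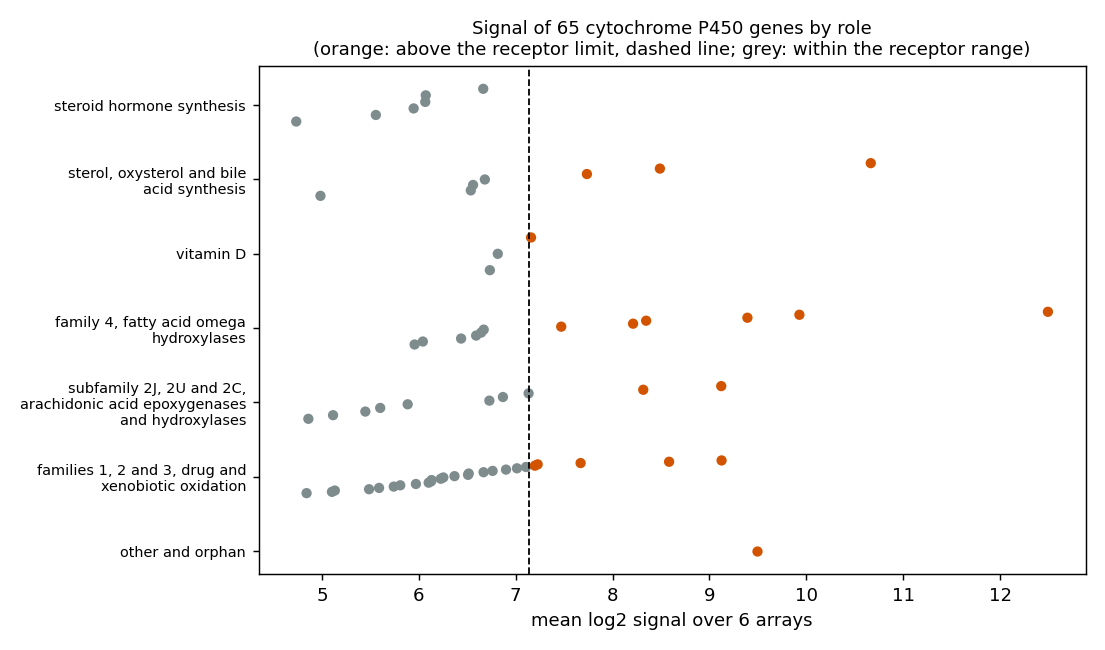
Mean log2 signal over the 6 arrays (x axis) of the 65 P450 genes, grouped by role (y axis); each point is a gene, and vertical offsets within a role only separate the points. Orange points exceed the receptor limit of 7.13 (dashed line) and grey points do not: all 6 steroid hormone synthesis genes are grey, while 6 of 12 genes of family 4 are orange.

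The signal limit divided the roles unevenly. Of the family 4 genes, whose products mostly hydroxylate the far end of fatty acids, 6 of 12 were above it. Of the sterol, oxysterol and bile acid genes 3 of 7 were above it, of the vitamin D genes 1 of 3, of subfamilies 2J, 2U and 2C, which include makers of epoxides from arachidonic acid, 2 of 10, and of the drug and xenobiotic genes of families 1, 2 and 3, 5 of 26. None of the 6 steroid hormone synthesis genes measured was above it, and the remaining gene, the orphan Cyp20a1, was.

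The promoters of a few members are shown for the range of CG content among genes above the receptor limit, and because Cyp2j4 and Cyp2d5 carry the differences described further on. Each is the stretch of 250 bases before the start that RefSeq annotates in the rat assembly GRCr8, read from 5′ to 3′ on the gene's strand. Capitals mark CG dinucleotides and the letters TATAA on either strand (read as TTATA on the opposite one; both can overlap in TTATAA). Cyp51 and Cyp20a1 stand for promoters dense in CG, and Cyp4b1, the member of strongest signal, for one with none.
Cyp51, GRCr8 chr4:30991443-30991692, plus strand: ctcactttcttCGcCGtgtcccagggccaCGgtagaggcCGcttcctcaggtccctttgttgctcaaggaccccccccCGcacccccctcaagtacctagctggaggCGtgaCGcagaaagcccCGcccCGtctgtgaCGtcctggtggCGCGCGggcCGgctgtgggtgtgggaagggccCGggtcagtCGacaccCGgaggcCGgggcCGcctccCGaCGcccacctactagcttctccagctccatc
Cyp20a1, GRCr8 chr9:69249623-69249872, plus strand: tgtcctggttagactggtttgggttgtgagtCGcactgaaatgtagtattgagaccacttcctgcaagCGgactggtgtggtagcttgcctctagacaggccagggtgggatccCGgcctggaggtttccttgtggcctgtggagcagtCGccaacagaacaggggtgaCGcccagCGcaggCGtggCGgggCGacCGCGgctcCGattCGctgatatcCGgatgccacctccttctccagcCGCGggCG
Cyp4b1, GRCr8 chr5:134393117-134393366, minus strand: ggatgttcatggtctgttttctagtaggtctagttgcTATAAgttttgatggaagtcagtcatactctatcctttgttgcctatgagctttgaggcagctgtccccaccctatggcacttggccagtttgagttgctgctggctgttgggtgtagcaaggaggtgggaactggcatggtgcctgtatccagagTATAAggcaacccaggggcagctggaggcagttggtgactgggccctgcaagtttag
Cyp2j4, GRCr8 chr5:116323043-116323292, minus strand: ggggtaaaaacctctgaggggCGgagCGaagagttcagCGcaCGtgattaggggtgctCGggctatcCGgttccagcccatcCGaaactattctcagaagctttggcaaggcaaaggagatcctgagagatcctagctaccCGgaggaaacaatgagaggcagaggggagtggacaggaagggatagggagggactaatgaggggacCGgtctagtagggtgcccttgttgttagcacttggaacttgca
Cyp2d5, GRCr8 chr7:115784488-115784737, minus strand: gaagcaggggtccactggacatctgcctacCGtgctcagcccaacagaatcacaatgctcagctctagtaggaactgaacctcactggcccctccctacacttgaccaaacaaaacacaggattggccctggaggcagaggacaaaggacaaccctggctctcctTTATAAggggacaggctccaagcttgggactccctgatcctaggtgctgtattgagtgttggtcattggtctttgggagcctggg

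RefSeq's promoter table held 52 of the 65 genes. The 17 of them above the receptor limit had a median of 7 CG dinucleotides in these 250 bases, the 35 within the receptor range had a median of 2, and all 27457 promoters of the table had a median of 6. At least 10 CG dinucleotides stood in 6 of the 17 and 2 of the 35, and in 38.4% of all promoters. TATAA on either strand stood in 4 of the 17, 16 of the 35 and 24.1% of all promoters. These are counts of letters, given without a test. The counts varied widely among the genes above the limit, with 26 CG dinucleotides before Cyp46a1, 21 before Cyp51, 17 before Cyp20a1, 9 before Cyp2j4 and 0 before Cyp4b1.

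**Figure D2:**
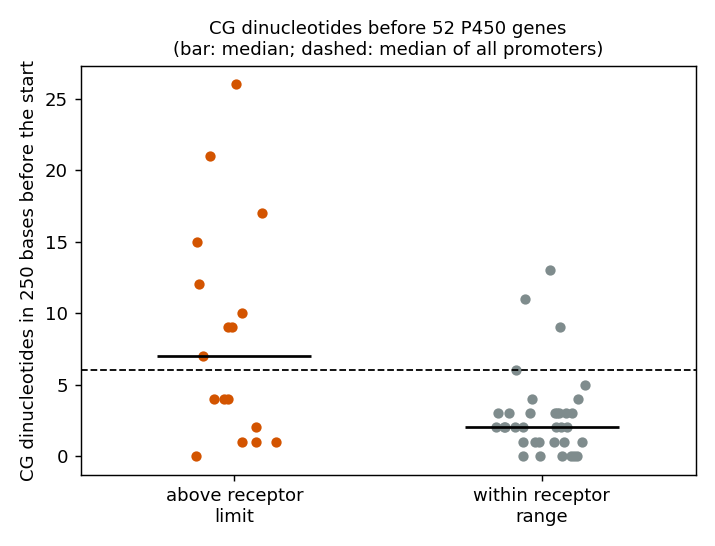
Number of CG dinucleotides in the 250 bases before the annotated start (y axis) of the 52 P450 genes whose RefSeq promoter was kept. They are split into 17 genes above the receptor limit (left) and 35 within the receptor range (right). Each point is a gene, black bars are medians of 7 and 2, and the dashed line is the median of 6 over all promoters; sideways scatter only separates the points.

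Genes that lie side by side in the genome could fall on different sides of the limit. By RefSeq's gene order, 46 of the 65 genes stood in 10 groups in which consecutive members lay within 1 Mb of each other. Of these 46, 11 were above the limit, as were 7 of the 19 with no other member that near. Only the 65 genes were counted, so other P450 genes of RefSeq may lie beside them. In the group of 14 genes that runs from Cyp2s1 through the 2B, 2G and 2A genes to Cyp2t1, only Cyp2s1, Cyp2f4 and Cyp2t1 were above it. Cyp4b1 lies beside Cyp4a1, which was within the receptor range at a mean of 5.96. Cyp2j4 lies between Cyp2j10 and Cyp2j3, both with means within that range, though Cyp2j10 exceeded the limit on 4 of 6 arrays.

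After mating, no P450 gene passed the test. Over all 14506 genes 0 (0%) had an adjusted p under 0.05 by limma, and the smallest adjusted p, 0.984, was also the smallest among the P450 genes. An unadjusted p under 0.05 was found for 4 of the 65 genes (6.15%), 3 higher and 1 lower in mated rats, against 4.57% of all genes, of which 3.02% were higher and 1.55% lower. That share is near the background. The background itself moved with single animals: it was 9.67% without mated replicate 1 and 2.98% without unmated replicate 2, where 6 and 4 P450 genes had such a p. The mated mean was higher for 34 genes, lower for 30 and equal for 1. The median difference, mated minus unmated, was 0.017 over the P450 genes and 0.010 over all genes.

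The intervals show how closely these 6 arrays measured single genes. The 95% intervals of the difference were not corrected for the number of genes. They lay wholly within a factor of 1.5 either way for 58 of the 65 genes and for 17 of the 18 above the limit. Cyp2j4 was the exception among the 18. The others of the 58 lay within the receptor range. A narrow interval there bounds the change of a signal not told from background, and not that of the transcript. From the estimate to either bound, the interval spanned a median of 0.20 log2 units for the 18 genes and 0.20 for all genes, so a typical difference under that size could not be told from 0.

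**Figure D3:**
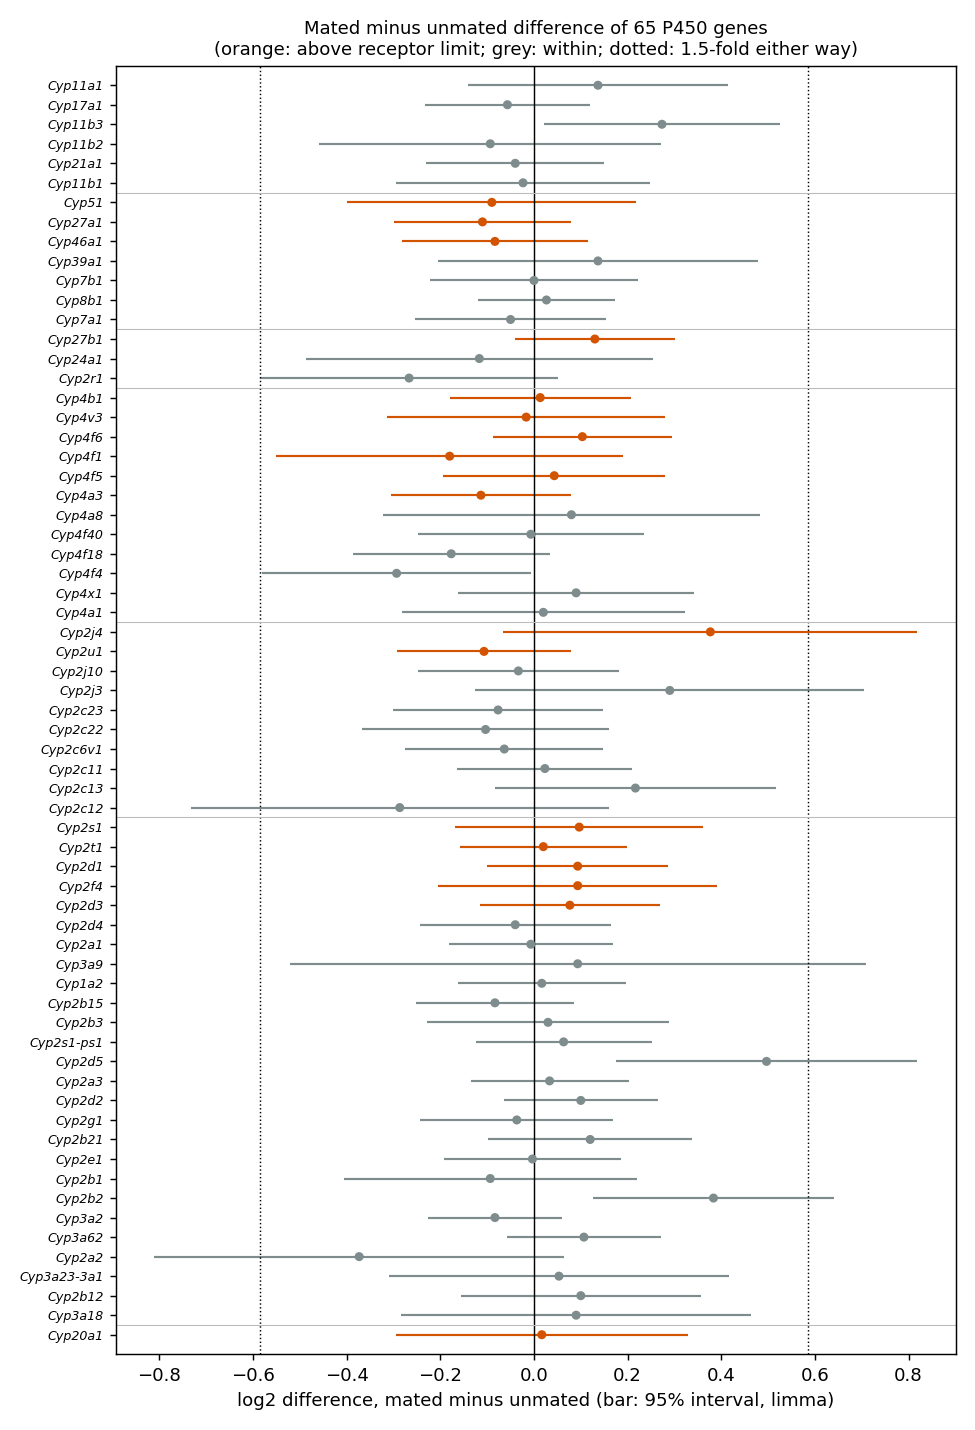
Log2 difference, mated minus unmated (x axis), of all 65 P450 genes (y axis), grouped by role and ordered by mean signal within a role; points are estimates and bars are 95% intervals of the limma fit on 3 mated and 3 unmated rats. Orange genes are above the receptor limit and grey genes within it; dotted lines mark a factor of 1.5, which 17 of the 18 orange intervals stay inside, and the intervals that leave out 0 belong to 4 grey genes.

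Cyp4b1, which oxidises fatty acids and a number of lung toxins, gave the strongest signal of the family. It was at 12.61, 12.53 and 12.36 in mated rats, against 12.42, 12.52 and 12.52 in unmated rats. The groups overlapped, and the difference was 0.01 (95% interval -0.18 to 0.21, adjusted p = 0.993 by limma). Its sign turned after centring on the median and with array weights. Cyp4v3, the rat counterpart of a human fatty acid hydroxylase whose loss causes a retinal crystal dystrophy, was at 10.21, 9.72 and 9.83 in mated rats, against 9.90, 10.05 and 9.86 in unmated rats. The mated values of Cyp4v3 lay on both sides of the unmated ones.

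Of the Cyp4f genes, Cyp4f1, Cyp4f5 and Cyp4f6, relatives of the enzymes that end the action of leukotriene B4, were above the limit. Cyp4f6 was at 9.39, 9.57 and 9.37 in mated rats, against 9.32, 9.27 and 9.43 in unmated rats. Cyp4f1 was at 8.01, 8.41 and 8.35 in mated rats, against 8.36, 8.76 and 8.19 in unmated rats. Cyp4f5 was at 8.13, 8.36 and 8.21 in mated rats, against 8.08, 8.11 and 8.38 in unmated rats. The groups overlapped for each of these genes, at differences of 0.10 (95% interval -0.09 to 0.30) for Cyp4f6, -0.18 (-0.55 to 0.19) for Cyp4f1 and 0.04 (-0.19 to 0.28) for Cyp4f5. The kidney and liver lauric acid hydroxylase Cyp4a3 averaged 7.41 ± 0.12 in mated and 7.53 ± 0.07 in unmated rats (SD, n = 3 each), closer to the limit. The 4F genes and the 4A genes are close relatives, so probe sets may share signal between copies.

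**Figure D4:**
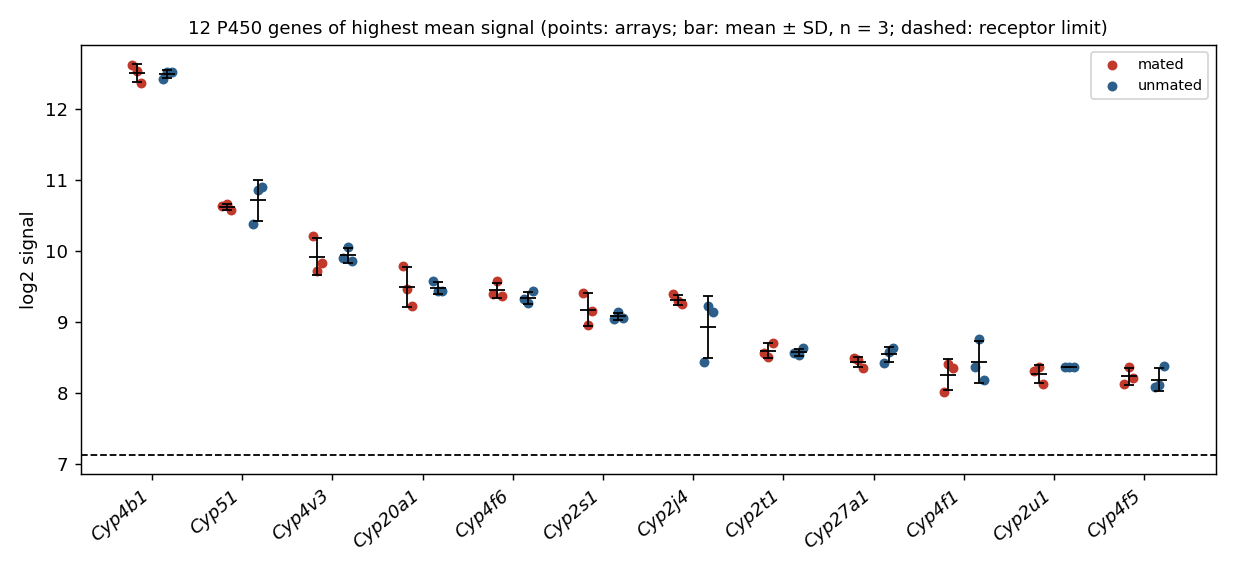
Log2 signal (y axis) on each array of the 12 P450 genes of highest mean signal (x axis), with mated rats in red on the left and unmated rats in blue on the right of each gene, replicates 1 to 3 from left to right. Bars are means ± SD (n = 3) and the dashed line is the receptor limit of 7.13; no array of these genes falls below the limit, and the lone low point of Cyp2j4 is unmated replicate 1 at 8.43.

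Among the sterol genes, Cyp51, the lanosterol demethylase of cholesterol synthesis whose product is known as a meiosis-activating sterol, gave the strongest signal. It was at 10.63, 10.66 and 10.57 in mated rats, against 10.38, 10.85 and 10.90 in unmated rats. The mated values lay close together inside the spread of the unmated ones, and the difference was -0.09 (95% interval -0.40 to 0.22). It depended on single unmated animals. The difference was -0.255 without unmated replicate 1 (adjusted p = 0.997 by limma) and 0.005 without unmated replicate 3. Cyp27a1, a mitochondrial enzyme that hydroxylates the sterol side chain, was at 8.49, 8.46 and 8.35 in mated rats, against 8.42, 8.58 and 8.63 in unmated rats. Cyp46a1, a cholesterol hydroxylase best known in neurons, averaged 7.69 ± 0.12 in mated and 7.78 ± 0.09 in unmated rats (SD, n = 3 each). The bile acid and oxysterol genes Cyp7a1, Cyp7b1, Cyp8b1 and Cyp39a1 lay within the receptor range, at means between 4.99 and 6.68.

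The partners of Cyp51 were measured through a list of other genes of cholesterol synthesis and its control. Of 21 measured genes 20 were above the limit and 0 passed the test, with 7 higher and 14 lower in mated rats at a median difference of -0.013. The strongest signal belonged to Idi1, the isopentenyl diphosphate isomerase, at 11.41 ± 0.09 in mated and 11.34 ± 0.16 in unmated rats (SD, n = 3 each). At an unadjusted p under 0.05 the list held Tm7sf2, which was higher, and Acat2, which was lower. Tm7sf2, a sterol reductase that acts on the product of Cyp51, had the smallest unadjusted p of the list. It was at 9.09, 9.21 and 9.31 in mated rats, against 8.92, 8.78 and 9.10 in unmated rats, and the groups overlapped by 1 value (difference 0.27, 95% interval 0.04 to 0.50, adjusted p = 0.984 by limma). Acat2, a thiolase that joins acetyl-CoA units and was named after its values were seen, was at 8.39, 8.31 and 8.34 in mated rats, against 8.43, 8.61 and 8.60 in unmated rats, with no overlap (difference -0.20, 95% interval -0.37 to -0.03, adjusted p = 0.984 by limma).

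The genes of steroid hormone synthesis were all within the receptor range. These were Cyp11a1, which cleaves the side chain of cholesterol, Cyp17a1, Cyp21a1 and the adrenal genes Cyp11b1, Cyp11b2 and Cyp11b3, at means between 4.74 and 6.67. The list of markers for the steroid-making cells of the neighbouring ovary also holds Cyp11a1 and Cyp17a1. Of its 8 measured genes 3 were above the limit. These were Inha, Star and Amh, at means of 8.35, 7.23 and 7.22, while the gonadotropin receptors Fshr and Lhcgr were at 5.62 and 5.26. A list of enzymes and cholesterol transport proteins of steroid metabolism, Star again among them, had 8 of 12 measured genes above the limit. Its strongest signal belonged to Hsd11b1, which regenerates active glucocorticoid, at 12.17 ± 0.07 in mated and 12.13 ± 0.06 in unmated rats (SD, n = 3 each). None of these 12 passed the test, at a median difference of 0.055; Hsd17b3, an androgen-making dehydrogenase of testis, had the smallest unadjusted p at a difference of 0.27 (0.07 to 0.47), within the receptor range at a mean of 5.44.

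Of the vitamin D genes, Cyp27b1, which makes the active hormone, lay just above the limit. It was at 7.11, 7.27 and 7.29 in mated rats, against 7.12, 7.08 and 7.08 in unmated rats. It exceeded the limit on only 2 arrays, both of mated rats. The vitamin D hydroxylase Cyp2r1 and the inactivating Cyp24a1 lay within the receptor range, at means of 6.73 and 6.82, with differences of -0.27 (95% interval -0.58 to 0.05) and -0.12 (-0.49 to 0.25). None of the 3 passed the test.

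Cyp2j4 had the largest difference of the 18 genes above the limit. Members of the 2J subfamily make epoxides from arachidonic acid, and rat Cyp2j4 is known from intestine. It was at 9.39, 9.29 and 9.25 in mated rats, against 8.43, 9.23 and 9.14 in unmated rats. All mated values lay above all unmated values, but most of the gap came from unmated replicate 1. The difference was 0.38 (95% interval -0.07 to 0.82, adjusted p = 0.984 by limma), and 0.13 without that animal (adjusted p = 0.997 by limma). Its neighbour Cyp2j3, a heart epoxygenase in rats, lay between 6.98 and 7.06 in mated rats, against 6.29, 6.77 and 7.11 in unmated rats; it was chosen for display after its values were seen. Unmated replicate 1 was the lowest array for both genes, and Cyp2j3 lay within the receptor range. The third gene of that group, Cyp2j10, averaged 7.12 ± 0.13 in mated and 7.15 ± 0.11 in unmated rats (SD, n = 3 each), with its overall mean of 7.133 just under the limit.

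Cyp2u1, which hydroxylates long-chain fatty acids including arachidonic acid, was the other gene above the limit whose groups did not overlap. It was at 8.31, 8.36 and 8.12 in mated rats, against 8.37 in each of the 3 unmated rats. The highest mated value lay just under the unmated ones, and the difference was -0.11 (95% interval -0.29 to 0.08, adjusted p = 0.984 by limma). In all, 6 of the 65 P450 genes (9.23%) had groups that did not overlap, 4 higher and 2 lower in mated rats, against 8.47% of all genes, of which 5.24% were higher and 3.23% lower. They were 2 of the 18 above the limit and 4 of the 47 within the receptor range, against 7.88% of all genes above it and 9.93% of all genes within it. The measured 2C genes all lay within the receptor range.

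Other genes of eicosanoid metabolism, enzymes and the activating protein Alox5ap, were followed beside the 2J, 2U and 4F genes. Of 13 measured genes 11 were above the limit and 0 passed the test, with 6 higher and 7 lower in mated rats at a median difference of -0.0067. Ephx1, the microsomal epoxide hydrolase that opens epoxides formed by P450 enzymes, gave the strongest signal, at 12.29 ± 0.30 in mated and 12.47 ± 0.10 in unmated rats (SD, n = 3 each). Alox15, a lipoxygenase of arachidonic acid, had the smallest unadjusted p, at 8.57, 8.79 and 8.92 in mated rats, against 8.90, 9.09 and 9.03 in unmated rats. The groups of Alox15 overlapped by 1 value, and the difference was -0.25 (95% interval -0.48 to -0.01, adjusted p = 0.984 by limma).

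Of the drug and xenobiotic genes, 5 of 26 were above the limit. Cyp2s1, an enzyme of epithelia outside the liver, was at 9.41, 8.95 and 9.16 in mated rats, against 9.04, 9.14 and 9.05 in unmated rats. Cyp2t1, of which little is known, was at 8.56, 8.51 and 8.71 in mated rats, against 8.56, 8.53 and 8.63 in unmated rats. The groups overlapped for both. Cyp2d1, a liver enzyme of debrisoquine, averaged 7.72 ± 0.14 in mated and 7.62 ± 0.03 in unmated rats (SD, n = 3 each). Cyp2d3 averaged 7.24 ± 0.13 in mated and 7.16 ± 0.05 in unmated rats, and the airway enzyme Cyp2f4 averaged 7.27 ± 0.27 in mated and 7.18 ± 0.06 in unmated rats (SD, n = 3 each). These last 2 exceeded the limit on 4 of 6 arrays each. The classical liver genes Cyp1a2, Cyp2e1 and Cyp3a2, like all measured 2A, 2B and 3A genes, lay within the receptor range; of those just under the limit, Cyp2d4 was at a mean of 7.11 and Cyp2a1 at 7.01.

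The 4 P450 genes with an unadjusted p under 0.05 were all within the receptor range, where 7.15% of all genes had such a p. Cyp2d5, a liver relative of Cyp2d1, had the smallest p. It was at 6.88, 6.35 and 6.62 in mated rats, against 5.98, 6.10 and 6.28 in unmated rats, with no overlap and a difference of 0.50 (95% interval 0.18 to 0.82). Cyp2b2, a phenobarbital-inducible liver gene nearly identical to Cyp2b1, was at 6.12, 5.82 and 6.06 in mated rats, against 5.45, 5.62 and 5.78 in unmated rats, also with no overlap (difference 0.38, 0.13 to 0.64). Cyp2b1, named after its values were seen and also within the receptor range, differed by -0.09 (-0.41 to 0.22). That interval holds 0, so the signs of the 2 near copies cannot be compared. As with the 4F genes, probe sets of near copies may share signal. The adjusted p of Cyp2d5 and of Cyp2b2 was 0.984 by limma, and their direction held without each array in turn.

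Cyp11b3, an adrenal relative of aldosterone synthase, and Cyp4f4 completed this set. Cyp11b3 was at 6.13, 6.31 and 6.17 in mated rats, against 5.93, 5.73 and 6.13 in unmated rats. Cyp4f4 was at 6.07, 6.24 and 6.56 in mated rats, against 6.49, 6.59 and 6.67 in unmated rats. The Cyp11b3 groups shared the value 6.13, and those of Cyp4f4 overlapped by 1 mated value. Cyp11b3 differed by 0.27 (95% interval 0.02 to 0.53) and Cyp4f4 by -0.29 (-0.58 to -0.01), each with an adjusted p of 0.984 by limma. Of the 18 genes above the limit 0 had an unadjusted p under 0.05, against 3.52% of all genes above it.

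**Figure D5:**
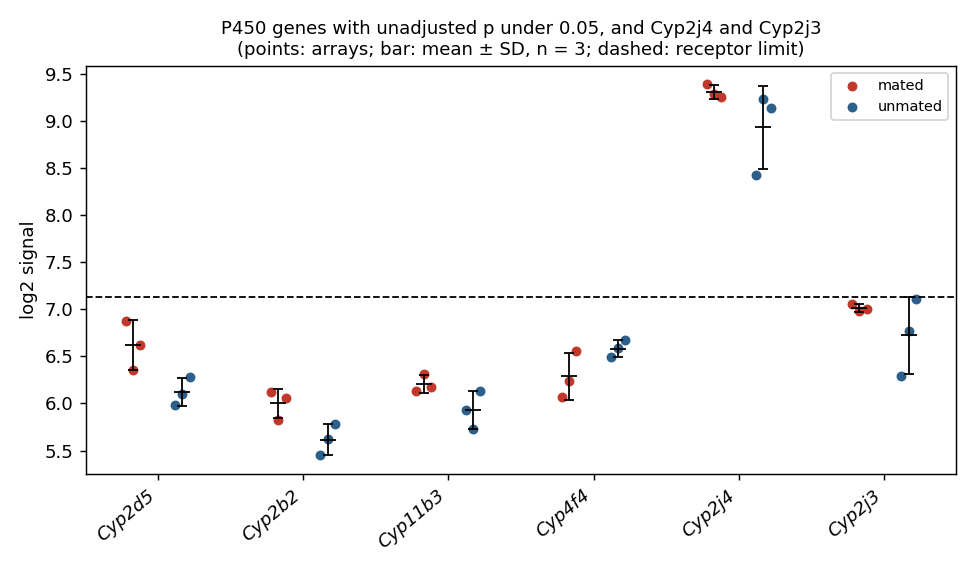
Log2 signal (y axis) on each array of the 4 P450 genes with an unadjusted p under 0.05 and of the neighbours Cyp2j4 and Cyp2j3 (x axis), with mated rats in red on the left and unmated rats in blue on the right of each gene, replicates 1 to 3 from left to right. Bars are means ± SD (n = 3) and the dashed line is the receptor limit of 7.13; only Cyp2j4 lies above it, and unmated replicate 1 is the lowest array of Cyp2j4 and Cyp2j3.

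Cyp20a1, an orphan enzyme with no settled substrate, was at 9.79, 9.47 and 9.23 in mated rats, against 9.58, 9.43 and 9.43 in unmated rats. Its mated values spread wider than the unmated ones, and the difference was 0.02 (95% interval -0.29 to 0.33). Mated replicate 1 was the highest array for Cyp20a1, Cyp4v3, Cyp2s1, Cyp2j4 and Cyp4b1. Over the 65 genes it was the lowest array for 21, more than any other array, and the highest for 14. Ties went to the first array in order, which was mated replicate 1. The median deviation of the P450 genes on that array was -0.04, against 0.02 for all genes.

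A list of redox genes, which holds electron donors of P450 enzymes, cytochrome b5 reductases, the heme-binding Pgrmc1 and Pgrmc2 and the quinone reductase Nqo1, had all 12 measured genes above the limit, and 0 passed the test, with 5 higher and 7 lower in mated rats at a median difference of -0.02. Por, the oxidoreductase that serves the microsomal enzymes, was at 11.48, 11.69 and 11.52 in mated rats, against 11.74, 11.53 and 11.59 in unmated rats. Cyb5r3, a reductase of cytochrome b5, had the smallest unadjusted p and averaged 9.84 ± 0.16 in mated and 10.03 ± 0.08 in unmated rats (SD, n = 3 each). The groups overlapped for both genes.

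Genes of heme synthesis and breakdown were above the limit for 12 of 14 measured members, and 0 passed the test, with 4 higher and 10 lower in mated rats at a median difference of -0.03. Alas1, the first and rate-limiting enzyme of heme synthesis, averaged 11.93 ± 0.10 in mated and 11.88 ± 0.13 in unmated rats (SD, n = 3 each). Hmox1, the inducible heme oxygenase, had the smallest unadjusted p of that list, at 7.22, 7.11 and 7.48 in mated rats, against 6.92, 6.74 and 6.92 in unmated rats. Its groups did not overlap, and the difference was 0.41 (95% interval 0.16 to 0.66, adjusted p = 0.984 by limma) at a mean of 7.07, within the receptor range.

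Regulators that switch P450 genes in response to foreign chemicals and sterols were above the limit for 12 of 18 measured genes, and 0 passed the test, with 11 higher and 7 lower in mated rats at a median difference of 0.04. Nfe2l2, the activator of antioxidant genes, gave the strongest signal, at 11.36 ± 0.04 in mated and 11.30 ± 0.03 in unmated rats (SD, n = 3 each). Vdr, the vitamin D receptor that controls Cyp24a1, had the smallest unadjusted p, at 8.20, 8.27 and 8.51 in mated rats, against 8.24, 7.80 and 7.95 in unmated rats. The groups of Vdr overlapped (difference 0.33, 95% interval 0.03 to 0.63, adjusted p = 0.984 by limma). Of the 90 measured genes of these 6 lists 6 (6.67%) had an unadjusted p under 0.05, with 4 higher and 2 lower in mated rats, against 4.57% of all genes, of which 3.02% were higher and 1.55% lower. That share, too, is near the background.

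No cell type marker passed the test. The mean log2 signal of the ciliated markers was between 10.48 and 10.75 on the mated arrays and between 10.54 and 10.72 on the unmated arrays, with 8 of 9 genes lower in the mated mean. The epithelial markers lay between 11.81 and 11.94 on the mated arrays and between 11.73 and 11.93 on the unmated arrays. The ovarian list lay between 6.59 and 6.69 on the mated arrays and between 6.52 and 6.60 on the unmated arrays. Of its 8 genes, Cyp11a1 and Cyp17a1 among them, 6 were higher in the mated mean. The fibroblast list lay between 7.39 and 7.56 on the mated and between 7.45 and 7.80 on the unmated arrays, with all 8 genes lower in the mated mean. The mated mean was higher for 6 of 9 epithelial, 6 of 7 hepatocyte, 5 of 6 adipocyte and 3 of 5 endothelial genes. It was lower for 5 of 7 leukocyte and 5 of 7 smooth muscle genes. Of the 7 hepatocyte genes only 1 was above the limit. The part of cell makeup in the P450 differences was not tested.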

How the data were processed

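RNA of 6 rats was measured on 6 Affymetrix arrays, from 0.3 µg of total RNA per animal per the labels' protocols. Per the submitters' processing notes, RMA and Affymetrix Expression Console were used; versions and genome build are not given in the sources used here. The authors deposited log2 signals for every probe set on each array, and no further scaling was applied; that they are log2 follows from their range and from RMA. RMA equalises the arrays' distributions and compresses differences of dim probe sets. Of 29214 probe sets, 15310 had exactly 1 gene symbol, 323 several and 13581 none listed; the brightest probe set per gene was kept. Precision is limited by the number of arrays.

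Mated and unmated rats were compared over all 14506 genes with limma 3.58.1 in R 4.3.3 (lmFit, eBayes, two-sided, Benjamini-Hochberg, threshold 0.05), tested on simulated data. The labels number biological replicates in each group. These numbers were not treated as pairs.

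Members, roles, 6 pathway lists and 9 marker lists were chosen with earlier results of these data known. The naming rule took every P450 gene above the receptor limit, with array values for the 12 of strongest signal and those with an unadjusted p under 0.05, the 3 nearest below the limit, and from each pathway list the gene of smallest p and of strongest signal. All 65 symbols matched RefSeq; GRCr8 served for names, gene order and promoters. Alternatives covered the variance model, weights, scaling, dim genes, probe sets, the receptor limit, a replicate block and leaving out each array.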

Additional observations from a re-analysis of the deposited data

How the results depend on the processing

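No gene passed the threshold over all genes in limma as fitted or under any of the 15 alternatives, among them the replicate block, trend, robust fitting, weights, both scalings, both dim filters and each array left out, while limma as fitted gave 663 genes (4.57%) an unadjusted p under 0.05, a share between 2.98% and 9.67% without 1 array. The count of P450 genes with an unadjusted p under 0.05 was 4, between 3 and 6 without 1 array, and 5 with the replicate block, which changed no adjusted call. Deviations of equally numbered arrays correlated at 0.0035, -0.083 and 0.074, so the numbers gave no pairing, and not every array correlated best with its own number. The count of P450 genes with an unadjusted p under 0.05 was 0 with the dimmest 25% or the dimmest 50% of genes left out, since all 4 lie among the dim genes removed. The count with groups that do not overlap, 6, was 2 and 1 under those filters. It was between 10 and 15 without 1 array, where fewer values per group overlap less often by construction. The matching shares of all genes are not given here, so these counts cannot be set against a background. The number above the receptor limit, 18, was 12 at the 99th and 24 at the 90th percentile of the receptor genes. The median P450 difference ranged from -0.013 to 0.040 without 1 array. Of 25 named P450 genes, 15 kept their sign in every alternative that held them. Cyp4b1 turned to -0.016 with array weights and -0.0033 after median centring, and Cyp20a1 to -0.078 with array weights. Without 1 array the ranges that crossed 0 were -0.042 to 0.083 for Cyp4b1, -0.26 to 0.005 for Cyp51, -0.162 to 0.083 for Cyp4v3, -0.13 to 0.15 for Cyp20a1, -0.022 to 0.208 for Cyp2s1, -0.038 to 0.062 for Cyp2t1, -0.02 to 0.14 for Cyp4f5, -0.10 to 0.04 for Cyp2j10, -0.122 to 0.018 for Cyp2d4 and -0.06 to 0.035 for Cyp2a1. The cause of these turns was not tested. Signals near the receptor limit bound what these arrays can show.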
